A study of Homo sapiens with 6 samples.

Results

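The 6 nucleolar protein genes NCL, NPM1, FBL, NOP56, NOP58 and DKC1 were followed through PAR-CLIP libraries of HEK293 cells, a human embryonic kidney line. A site was taken as a member when it lay on the strand of one of these genes and inside that gene's GENCODE span on hg19, and its midpoint then placed it in an exon of a protein-coding transcript, in a small RNA gene embedded on the same strand, or in the remaining intron. This gave 2494 sites of 10639684 in all 6 libraries together. This choice of sites used gene positions only and no read count, whereas the genes were chosen with earlier results of these data known.

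In PAR-CLIP, cells take up 4-thiouridine (4SU), ultraviolet light crosslinks it to bound protein, and the crosslinked bases are read as T-to-C changes called conversion events. Cells of every group were grown with 4SU, crosslinked at 365 nm and their lysates digested with RNase T1, which cuts after G. FLAG-tagged GFP, which is no RNA-binding protein, was immunoprecipitated with the FLAG M2 antibody from cells with a doxycycline-inducible transgene, and RNA was taken from gel slices at about 20, 35 and 45 kDa (G20, G35 and G45, 1 library each, the background group of 3 libraries). FLAG-tagged HuR (ELAVL1), a protein that binds U-rich RNA, was immunoprecipitated in the same way from inducible cells (HuR replicates 1 and 2, 2 libraries). Total was 1 library of lysate RNA with no immunoprecipitation, digested with proteinase K and depleted of ribosomal RNA. Both transgenes were overexpressed and carried a tag, and the 3 slices differ in size, so that they are not replicates of a slice. No marker of HEK293 cells was checked, since reads at crosslinked sites do not measure expression.

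The nucleolus is where ribosomal RNA is transcribed, modified and built into ribosomal subunits. Nucleolin (NCL) and nucleophosmin (NPM1) are abundant nucleolar phosphoproteins that act in ribosome assembly. Fibrillarin (FBL), NOP56 and NOP58 are core proteins of the box C/D snoRNPs, which methylate the ribose of ribosomal RNA under the guidance of small nucleolar RNAs (snoRNAs), and dyskerin (DKC1) is the pseudouridine synthase of the box H/ACA snoRNPs. Several of these genes carry snoRNAs in their own introns, which are released as the intron is spliced out and trimmed, so that 1 primary transcript yields an mRNA, intron fragments and snoRNAs.

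The sequences with the most reads differed between groups, and those on which the results turn are shown here, each with at most 30 bases of the site, 5′ to 3′, as DNA on the strand of the RNA. The first set holds the site with the most HuR replicate 2 reads in each gene and, last, the NCL intron site that held most NCL reads of HuR replicate 1, with runs of 3 or more T in capitals.
NCL, 3′UTR, chr2:232319607-232319636 (−): aaaaccaTTTTTTcctacaaatagTTTggg
NPM1, intron, chr5:170829084-170829107 (+): aatagTTTaTTTacaaTTTaaacg
FBL, intron, chr19:40327771-40327800 (−): actggcttaaaaacattaTTTTTcattctg
NOP56, exon of an alternative coding transcript, chr20:2638335-2638364 (+): catggtgggtgTTTTTTaggTTTTTTTTTT
NOP58, intron, chr2:203164106-203164135 (+): tgTTTctgtgggcattcacaTTTTcTTTTT
DKC1, exon of an alternative coding transcript, chrX:153992825-153992844 (+): cttatctccttaTTTataag
NCL, intron, chr2:232323342-232323355 (−): TTTTgttatgcgcg

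The second set holds the leading coding sites of the GFP slices, with GANGA (N is any base) in capitals for the 3 NCL sites of G20, G35 and G45, and with GGNGG in capitals for the FBL site of G20.
NCL, G20, chr2:232326420-232326449 (−): aatgccaagaagGAAGAcagtGATGAAGAg
NCL, G35, chr2:232326377-232326406 (−): gtGAGGAGGATGAGGAGGATGACGAGGAcg
NCL, G45, chr2:232325473-232325500 (−): aacgtggctGAGGATGAAGATGAAGAag
FBL, G20, chr19:40331340-40331369 (−): tcgtGGAGGccgaGGGGGctttGGCGGGGG

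The third set holds the leading G20 sites of SNORD20, SNORD11 and SNORD11B and both sites of an unannotated NOP56 intron block, with the box C core TGATGA and the box D core CTGA in capitals.
SNORD20, NCL, chr2:232321210-232321234 (−): tggataTGATGACTGAttacCTGAg
SNORD11, NOP58, chr2:203157828-203157856 (+): catctttagtcactacctcttCTGAgaca
SNORD11B, NOP58, chr2:203156116-203156143 (+): ttcagtcactacctcatCTGAtgccatc
NOP56 block, upstream site, chr20:2637586-2637615 (+): ggaggTGATGAactgtCTGAgcCTGAcctt
NOP56 block, downstream site, chr20:2637625-2637654 (+): aggcaaaaaaaCTGAtttaatgagcCTGAt

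The fourth set holds the leading exon sites of Total, with each G, after which RNase T1 cuts, in capitals.
FBL, CDS, chr19:40328362-40328383 (−): ctcGacacccacacaaataccG
NCL, CDS, chr2:232323048-232323076 (−): ctaaaaatctcccttacaaaGtcactcaG

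The libraries differed in depth, from 6187300 reads in G35 to 38644636 in G20, counted over all their sites, and the members held 6379 reads in G20, 578 in G35, 678 in G45, 1453 and 11555 in HuR replicates 1 and 2 and 18186 in Total. G20 stood apart from the other slices. Its 10 largest sites took 76.5% of its reads, against 19.7% in G35 and 21.1% in G45, and edgeR's TMM factor, which scales the libraries to a common level for most genes, was 0.208 for it and between 0.964 and 2.31 for the other 4 immunoprecipitated libraries. The 10 largest sites took 61.9% of the reads of Total and 3.78% and 2.46% of those of HuR replicates 1 and 2. Levels are given as reads per 1000000 reads at all sites of the library (RPM), in which 3 reads, the limit that a count of 0 allows, correspond to between 0.0776 RPM in G20 and 0.485 RPM in G35. The divisor includes the 10 largest sites, so that comparisons of G20 or Total with HuR in RPM hold on this scale only. Reads carried no molecular identifiers, so that intervals and floors cover counting error only. Each library pools many cells, and fewer cells holding an RNA and less of it per cell cannot be told apart.

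Summed over the 6 genes, introns took a larger share of the reads in HuR, and exons and embedded small RNAs a larger share in the GFP slices. The genes differed among themselves. In RPM the summed exons overlapped between the groups, with 65.0, 41.7 and 39.5 in G20, G35 and G45 and 20.5 and 91.8 in HuR replicates 1 and 2. In HuR introns made up most reads of NPM1, FBL and NOP58. DKC1 was 64.5% exon and NOP56 58.6% exon on average, and 1530 of the 1911 NCL reads of HuR replicate 2 were exon. Of the NOP56 exon reads, 22 of 30 and 334 of 369 in HuR replicates 1 and 2 lay in introns of the canonical transcript. For DKC1 these were 18 of 50 and 310 of 471. In GFP introns made up 64.2% of the NPM1 reads and 60.2% of the NOP56 reads on average, the latter 0.0818% when exons of all transcripts were used. Intron sites took 15.2%, 37.7% and 26.7% of the member reads in G20, G35 and G45, against 85.0% and 73.0% in HuR replicates 1 and 2, so that the groups did not overlap (26.5% ± 11.3, SD, n = 3, against 79.0% ± 8.47, SD, n = 2). Embedded small RNAs took 45.5%, 17.6% and 29.4% in the slices (30.8% ± 13.97, SD, n = 3) and 1.58% and 1.46% in the HuR replicates (1.52% ± 0.0851, SD, n = 2). Without G20 the GFP means were 32.2% for introns and 23.5% for small RNAs. Exon sites took 39.3%, 44.6% and 44.0% in the slices and 13.4% and 25.5% in the HuR replicates, which again did not overlap. In Total the shares were 64.8% exon, 18.9% intron and 16.3% small RNA, and its intron share lay between those of G20 and G45. With 3 libraries against 2, an exact permutation test whose two-sided p is 2 times the one-sided one cannot go below 0.2, and these differences are therefore given against the spread alone.

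**Figure D1:**
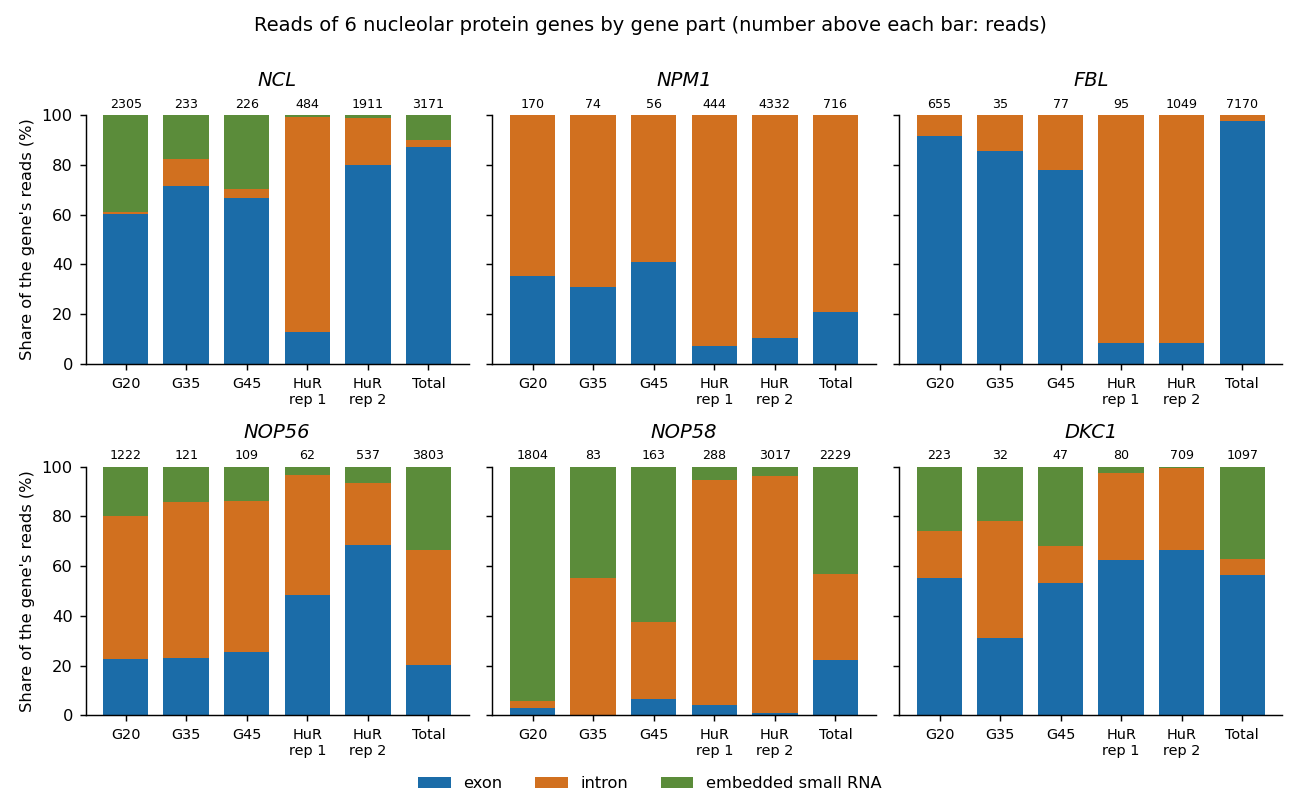
Share of each gene's reads (y axis, percent) at exon, intron and embedded small RNA sites, stacked to 100% in 1 bar per library, with the number of reads above each bar and 1 panel per gene. In FBL introns hold 91.6% in both HuR replicates and at most 22.1% in the GFP slices. In NOP56 the slices hold larger intron shares, 57.4% to 62.8%, than the HuR replicates, 48.4% and 24.6%. Exons are those of protein-coding transcripts, and most HuR exon reads of NOP56 lie in introns of the canonical transcript.

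Within exons the position of the reads also differed. Coding sequence held 92.0% of the exon reads of G20, 84.1% of those of G35 and 84.2% of those of G45 (86.8% ± 4.52, SD, n = 3), against 31.8% and 15.8% in HuR replicates 1 and 2 (23.8% ± 11.3, SD, n = 2). The 3′UTR held 2.15%, 6.59% and 5.03% in the slices (4.59% ± 2.25, SD, n = 3) and 32.8% and 55.6% in the HuR replicates (44.2% ± 16.1, SD, n = 2). Neither share overlapped between the groups, and both shares of Total (87.5% coding, 4.19% 3′UTR) lay within the range of the slices. A further 31.3% and 27.2% of the HuR exon reads lay in exons that belong to alternative coding transcripts and lie between the ends of the coding sequence without being coding, where the slices held 0.797%, 1.94% and 7.38%. In place of the intron shares given above, which use exons of protein-coding transcripts, HuR had 54.4% and GFP 12.1% on average with exons of all transcripts, and 85.4% and 28.02% with exons of the canonical transcript alone, the latter an alternative chosen after seeing the data.

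Differences between HuR and GFP were tested per gene with edgeR's quasi-likelihood test on the summed reads of 20879 exon, intron and small RNA features, with Benjamini-Hochberg adjustment over all of them, and a feature was called at an adjusted p under 0.05. The adjusted p was 0.0470 or 0.0475 for every member called, since many features shared these values, and stood close to the threshold. Over all features 2.55% of 8195 exon features were called lower in HuR and 0.0244% higher, 0.363% of 12399 intron features lower and 0.0968% higher, and 46.3% of 285 small RNA features lower and 0% higher. Calls with library sizes alone, with no TMM factor, turned the balance from 14 higher and 386 lower to 1412 higher and 93 lower and moved the median log2 fold change of all features from 0.0077 to 1.74. Each fold change below is therefore relative to the scaling.

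**Figure D2:**
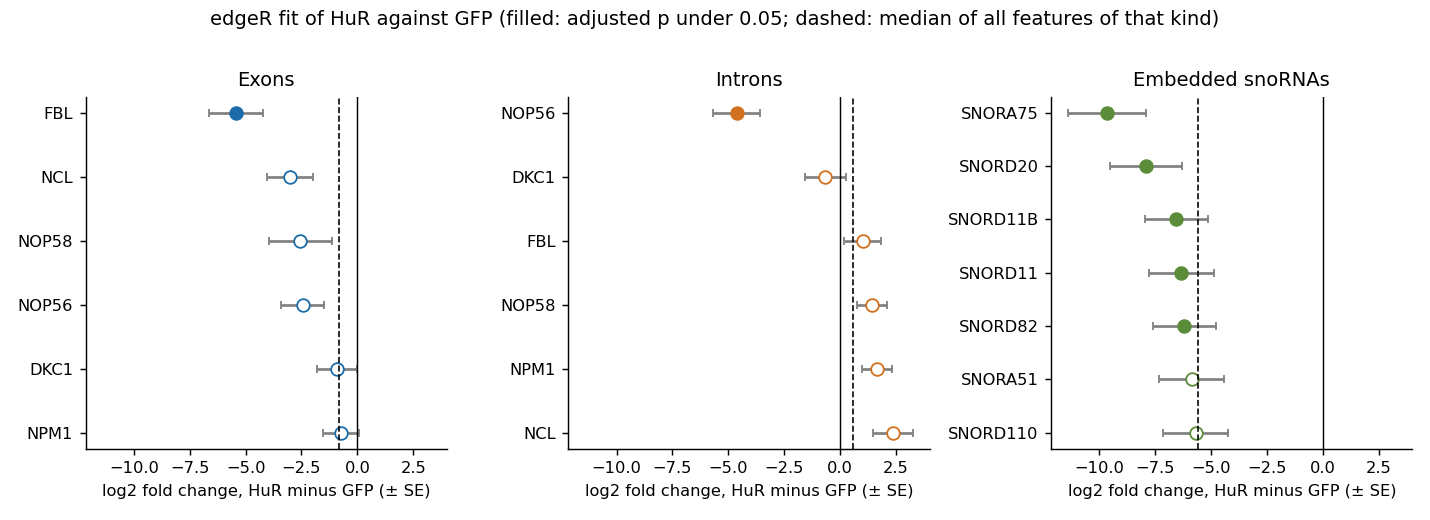
Log2 fold change of HuR over GFP (x axis, bars ± SE) for exons, introns and embedded snoRNAs of the members that were tested, from edgeR with TMM scaling, filled at an adjusted p under 0.05, with a dashed line at the median of all features of that kind. FBL exons, NOP56 introns and 5 snoRNAs are filled and lower in HuR, and no member is called higher.

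NCL lies on chr2:232318242-232348352 (−), with 14 exons in its canonical transcript. Its exons held 1391 reads in G20, 167 in G35, 151 in G45, 63 and 1530 in HuR replicates 1 and 2 and 2762 in Total, or 36.0, 27.0, 20.0, 6.61, 47.6 and 76.9 RPM, respectively. HuR replicate 1 lay below and HuR replicate 2 above every slice, so that the groups overlapped. The log2 fold change was −3.01 ± 1.04 (SE) and was not called (adjusted p = 0.0928).

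The NCL reads of the groups lay in different parts of its mRNA. Coding sequence held 1331, 156 and 138 reads in G20, G35 and G45 and 11 and 189 in the HuR replicates, whereas the 3′UTR held 17, 10 and 10 against 44 and 1309. The leading HuR replicate 2 site, chr2:232319525-232319644 in the 3′UTR, had 1157 reads and 1206 conversion events, and G20 and G45 had 4 reads each there and G35 none. Without it, NCL exons had 373 reads or 11.6 RPM in HuR replicate 2, below each slice. A neighbouring 3′UTR site, chr2:232319464-232319509, had 110 reads and 91 events in HuR replicate 2 and overlapped no GFP site.

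The leading NCL site of G20 (chr2:232326251-232326449, 545 reads and 84 events) and that of G35 (chr2:232326377-232326440, 35 reads and 19 events) share the same coding stretch, and that of G45 (chr2:232325434-232325509, 38 reads and 4 events) lies in another. HuR replicate 1 had no read at the first or the last of these sites, and HuR replicate 2 had 30 reads at the first and 9 at the last. GANGA, searched on the strand of the RNA and overlapping itself within these sites, was in 34.7% of the members' exon sites in G20, 42.9% in G35 and 31.3% in G45, against 29.3%, 19.9% and 13.4% of all sites of the same lengths in the same libraries. NCL alone gave 12 of the 43 such sites in G20, 9 of 15 in G35 and 9 of 20 in G45. In HuR replicates 1 and 2 the shares were 5.68% and 21.9%, against 3.61% and 7.46% of all sites. GANGA, and GGNGG below, were chosen after values were seen. The sites printed above are counted in the shares of the slices, which are therefore a description.

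NCL introns held 13 reads in G20, 25 in G35, 8 in G45, 417 and 361 in HuR replicates 1 and 2 and 93 in Total, or 0.336, 4.04, 1.06, 43.8, 11.2 and 2.59 RPM. Both HuR libraries lay above every slice. The log2 fold change of +2.37 ± 0.90 (SE) was not called (adjusted p = 0.114). In HuR replicate 1 a single 14-base site with 384 reads and no conversion event made up most of this level, and 33 reads or 3.46 RPM were left without it. The full G35 level of 4.04 RPM was higher, but 1 site held 21 of its 25 reads and was not taken out. HuR replicate 2 had 43 reads at that site, and no GFP slice had one.

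NPM1 lies on chr5:170814120-170838814 (+) with 11 canonical exons. GENCODE names 49 copies of it elsewhere in the genome, so that reads of its mRNA that match a copy as well were not counted as unique. Its exons held 60, 23 and 23 reads in G20, G35 and G45, 32 and 456 in HuR replicates 1 and 2 and 151 in Total, or 1.55, 3.72, 3.05, 3.36, 14.2 and 4.203 RPM. The groups overlapped, and the log2 fold change of −0.75 ± 0.80 (SE, adjusted p = 0.579) was not called. HuR replicate 2 differed from the slices again in the 3′UTR, with 212 reads against 4 in G20 and none in G35 or G45, and HuR replicate 1 had 8. The 5′UTR held 37, 18 and 9 reads in the slices and 5 and 9 in the HuR replicates, and the leading NPM1 sites of G20 and G35 both lay there.

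NPM1 introns held the most reads of any member feature in HuR replicate 2. They had 110 reads in G20, 51 in G35, 33 in G45, 412 and 3876 in HuR replicates 1 and 2 and 565 in Total, or 2.85, 8.24, 4.38, 43.3, 120.7 and 15.7 RPM. Both HuR libraries exceeded every slice and Total, with a log2 fold change of +1.65 ± 0.67 (SE) that was not called (adjusted p = 0.129). These reads were spread over 155 sites in HuR replicate 1 and 232 in HuR replicate 2, the largest of which had 19 reads (chr5:170825132-170825165, 17 events) and 265 reads (chr5:170829084-170829107, 246 events). The first overlapped no GFP site, and at the second G20 had 3 reads.

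FBL, on chr19:40325098-40337019 (−) with 9 canonical exons, was the only member whose exon reads were called. FBL exons held 600 reads in G20, 30 in G35, 60 in G45, 8 and 88 in HuR replicates 1 and 2 and 6990 in Total, or 15.5, 4.85, 7.96, 0.840, 2.74 and 194.6 RPM. Both HuR libraries lay below every slice, and Total lay far above. The log2 fold change was −5.43 ± 1.20 (SE) and was called lower (adjusted p = 0.0470), and it ranked low among exon features, with 1.61% of them having a lower value. Without G20 it was −3.99 (adjusted p = 0.0593), and without HuR replicate 2 it was −5.89, so that the call was lost in both. Without G20 none of the 19203 features tested was called, though 5314 had an unadjusted edgeR p under 0.05. With library sizes alone it was −2.82 (adjusted p = 0.112), where the median exon feature stood at 1.15.

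Of the FBL exon reads, 554 of 600 in G20, 23 of 30 in G35 and 58 of 60 in G45 were coding, and in HuR 8 of 8 and 76 of 88. Every HuR exon site of FBL overlapped a GFP site. The leading G20 site, chr19:40331257-40331426, had 258 reads and 18 events, and HuR replicates 1 and 2 had 0 and 15 reads there. GGNGG was in 28.2% of the members' exon sites in G20, below the 41.3% of all its sites of the same lengths. FBL gave 4 of these 35 sites. The shares were 34.3% and 26.6% in G35 and G45, against 28.1% and 18.6%, and 12.5% and 23.4% in HuR replicates 1 and 2, against 7.35% and 13.7%. In Total 4927 of the 6990 reads lay in 1 coding site, chr19:40328351-40328414, with 2 conversion events, and 2063 reads or 57.4 RPM were left without it, still above each slice. Per kilobase of exon, FBL in Total reached 158 RPM per kb and NCL 16.4.

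FBL introns went the other way. They held 55, 5 and 17 reads in G20, G35 and G45, 87 and 961 in HuR replicates 1 and 2 and 180 in Total, or 1.42, 0.808, 2.25, 9.13, 29.9 and 5.01 RPM, with both HuR libraries above every slice and Total. The log2 fold change of +1.01 ± 0.84 (SE, adjusted p = 0.463) was not called. Introns made up 91.6% of the FBL reads in each of the HuR replicates, 8.40%, 14.3% and 22.1% in the slices and 2.51% in Total. The leading FBL sites of both HuR replicates lay close together, at chr19:40327712-40327751 (12 reads and 11 events in replicate 1) and chr19:40327771-40327804 (101 reads and 129 events in replicate 2), and no GFP site overlapped either.

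NOP56 lies on chr20:2633239-2639039 (+), is the shortest member and has 12 canonical exons. Its exons held 279, 28 and 28 reads in G20, G35 and G45, 30 and 369 in HuR replicates 1 and 2 and 767 in Total, or 7.22, 4.53, 3.71, 3.15, 11.5 and 21.4 RPM. The groups overlapped, and the log2 fold change of −2.44 ± 0.96 (SE, adjusted p = 0.122) was not called. In HuR 22 of 30 and 334 of 369 exon reads lay in exons of alternative coding transcripts, against 4 of 279 in G20, 0 of 28 in G35 and 2 of 28 in G45. The leading HuR replicate 2 site, chr20:2638335-2638389 with 214 reads and 206 events, is of this kind, and G20 and G45 had 1 and 2 reads there.

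With the exons of protein-coding transcripts, the introns of NOP56 were the exception among the members. They held 701 reads in G20, 76 in G35, 66 in G45, 30 and 132 in HuR replicates 1 and 2 and 1762 in Total, or 18.1, 12.3, 8.75, 3.15, 4.11 and 49.0 RPM. Both HuR libraries lay below every slice, and the log2 fold change of −4.61 ± 1.05 (SE) was called lower (adjusted p = 0.0470), with 0.444% of the intron features having a lower value. The other 5 members had introns with both HuR libraries above every slice in RPM, which 72.4% of all intron features shared, whereas 0.169% of them lay below as NOP56 introns did. The call was lost without G20 (−3.46, adjusted p = 0.0593), where no feature at all was called, and without HuR replicate 2 (−4.34). It was also lost with library sizes alone (−2.19, adjusted p = 0.211) and with canonical exons alone (−3.27, adjusted p = 0.0619). Exons of alternative coding transcripts, which are introns of the canonical one, held 2.31 and 10.4 RPM of NOP56 in HuR replicates 1 and 2. In G20, G35 and G45 they held 0.104, 0 and 0.265 RPM. Where NOP56 introns lie against the slices therefore depends on the exon definition.

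In G20, G45 and Total most of the NOP56 intron reads came from 1 block of 120 bases, chr20:2637552-2637671, and in G35 and HuR fewer did. The block held 622 of the 701 reads in G20, 33 of 76 in G35, 37 of 66 in G45, 4 of 30 and 39 of 132 in the HuR replicates and 1578 of 1762 in Total. It holds both TGATGA and CTGA, the letters of boxes C and D, and the annotation used here places no small RNA there. RefSeq on GRCh38.p14 lists SNORD56 and SNORD57 as genes within NOP56, and whether the block is one of them was not determined. With the block counted as small RNA in place of intron, an alternative chosen after seeing the data, the NOP56 intron log2 fold change was −2.70 and was not called (adjusted p = 0.0723).

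**Figure D3:**
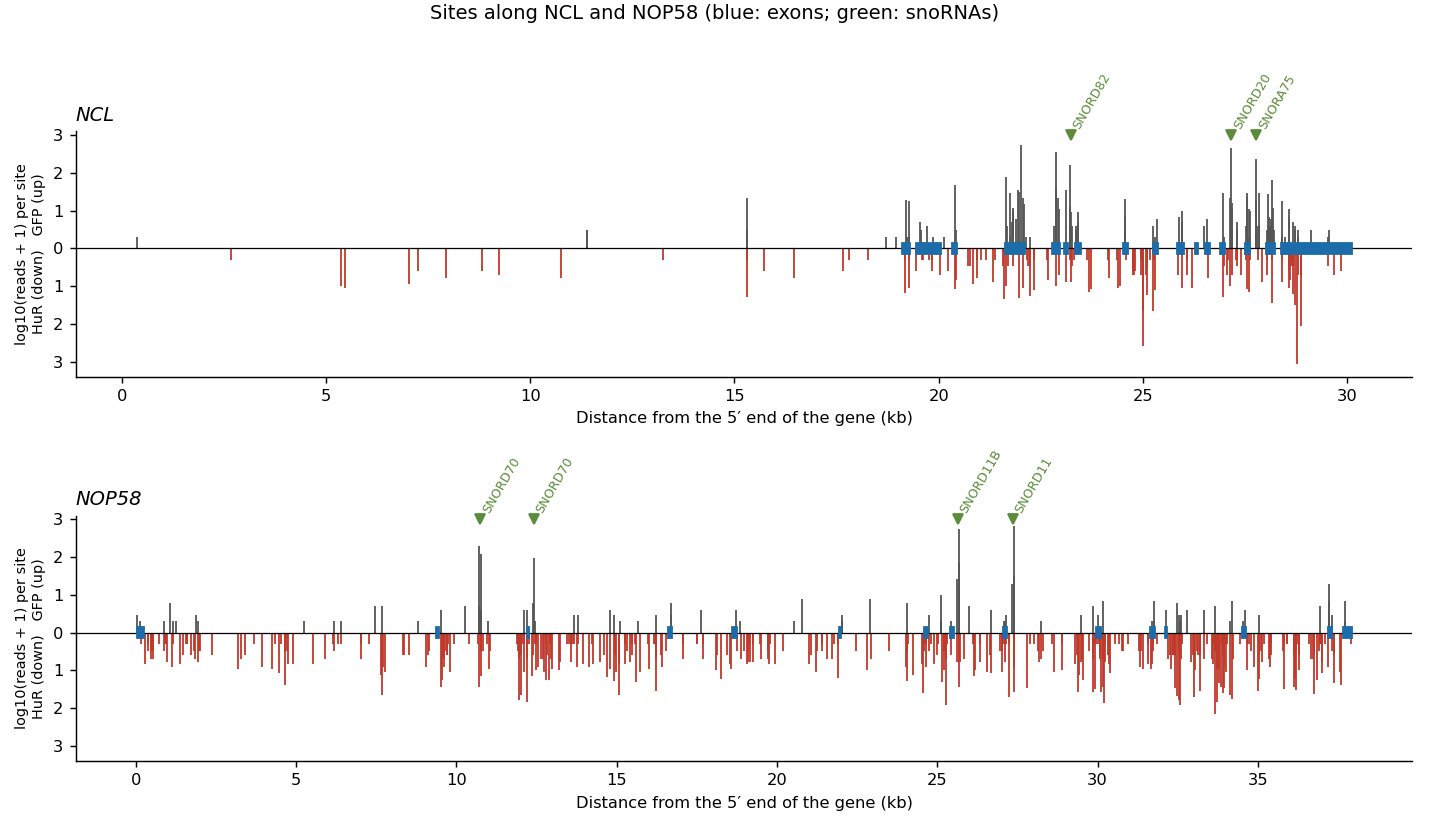
Sites along NCL and NOP58 by distance from the 5′ end of the gene (x axis, kb), with log10 of reads plus 1 per site (y axis) upwards for the 3 GFP slices and downwards for the 2 HuR replicates, exons in blue and snoRNAs as green triangles. In NOP58 the tallest GFP lines stand at the 4 snoRNAs and HuR lines run through the introns, and in NCL the tallest HuR lines are the 3′UTR site with 1157 reads and the intron site with 384.

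NOP58, on chr2:203130459-203168384 (+) with 15 canonical exons, is the longest member and had the fewest exon reads summed over the immunoprecipitated libraries. Its exons held 57, 0 and 11 reads in G20, G35 and G45, 12 and 35 in HuR replicates 1 and 2 and 501 in Total, or 1.47, 0, 1.46, 1.26, 1.09 and 13.9 RPM. The count of 0 in G35 allows up to 0.485 RPM. The log2 fold change of −2.55 ± 1.40 (SE, adjusted p = 0.252) was not called, and Total lay above and G35 below the other libraries.

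NOP58 introns held 47, 46 and 50 reads in G20, G35 and G45, 261 and 2872 in HuR replicates 1 and 2 and 763 in Total, or 1.22, 7.43, 6.63, 27.4, 89.4 and 21.2 RPM. Both HuR libraries lay above every slice and Total. The log2 fold change of +1.43 ± 0.67 (SE, adjusted p = 0.178) was not called. The largest of 145 intron sites in HuR replicate 1 had 9 reads and 13 events (chr2:203164151-203164211), and the largest of 223 in HuR replicate 2 had 144 reads and 127 events and lay directly upstream of it (chr2:203164106-203164150). Introns took 90.6% and 95.2% of the NOP58 reads in the HuR replicates, whereas its snoRNAs took 94.2% in G20, 44.6% in G35 and 62.6% in G45.

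DKC1 lies on chrX:153991017-154005964 (+) with 15 canonical exons. Its exons held 123, 10 and 25 reads in G20, G35 and G45, 50 and 471 in HuR replicates 1 and 2 and 618 in Total, or 3.18, 1.62, 3.32, 5.25, 14.7 and 17.2 RPM. It was the only member whose exons lay above every slice in both HuR libraries in RPM, which 47.5% of all exon features did, and FBL the only one whose exons lay below, which 8.03% did. The DKC1 log2 fold change with TMM scaling was −0.92 ± 0.88 (SE, adjusted p = 0.531) and with library sizes alone 1.38, so that its direction depended on the scaling and neither value was called. DKC1 introns held 42, 15 and 7 reads in the slices, 28 and 235 in the HuR replicates and 73 in Total. In RPM both HuR libraries, at 2.94 and 7.32, lay above the slices, of which G35 was highest at 2.42, whereas the log2 fold change was −0.66 ± 0.92 (SE, adjusted p = 0.681) with TMM scaling and 1.30 with library sizes alone, neither called.

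The leading DKC1 site of HuR replicate 2, chrX:153992825-153992844 with 96 reads and 94 events, lay in an exon of an alternative coding transcript, as did 310 of its 471 exon reads and 18 of the 50 in HuR replicate 1. In the slices these exons held 4, 0 and 4 reads. G45 had 1 read at the leading site and the other slices none.

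**Figure D4:**
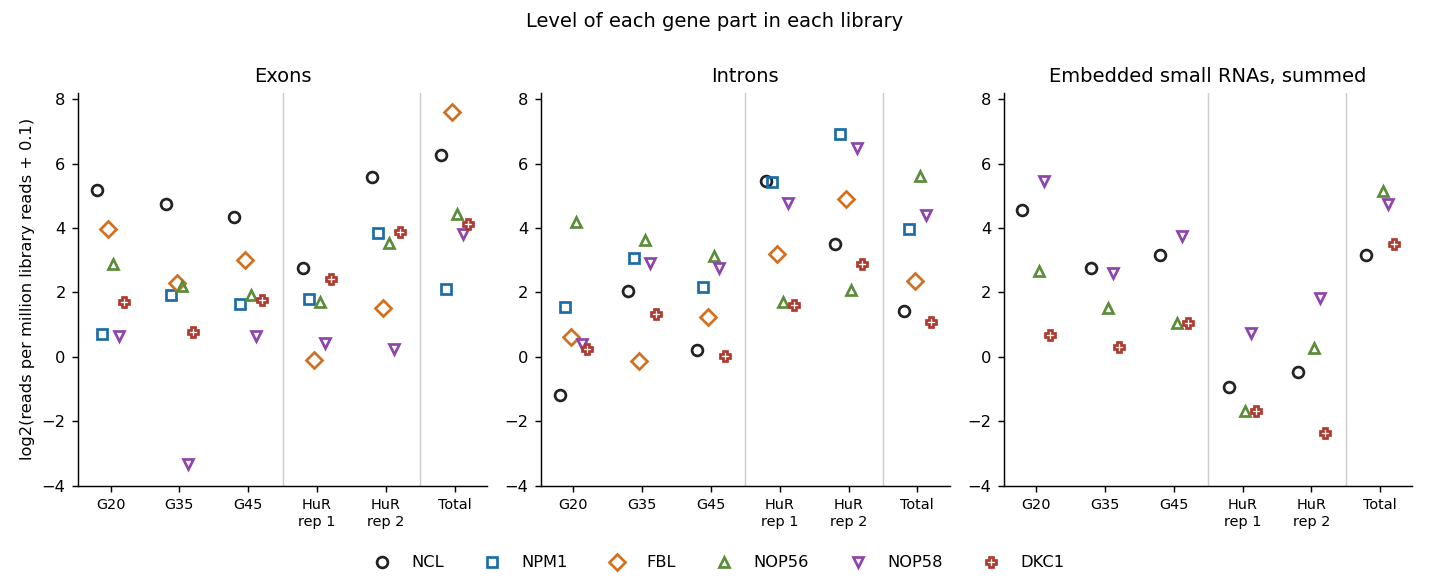
Level (y axis, log2 of RPM plus 0.1) of exons, introns and summed embedded small RNAs, 1 panel each, with 1 symbol per gene in each of the 6 libraries and grey lines between GFP, HuR and Total. FBL exons and NOP56 introns are lower in both HuR libraries than in every slice, the introns of the other 5 genes are higher, and the lowest exon symbol is NOP58 in G35, which has 0 reads.

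GENCODE places 13 small RNA genes inside the members on the same strand. SNORA75, SNORD20 and SNORD82 lie in NCL, MIR1292, SNORD110, SNORA51 and SNORD86 in NOP56, 2 copies of SNORD70 with SNORD11B and SNORD11 in NOP58, and SNORA36A and SNORA56 in DKC1. NPM1 and FBL have none. SNORD names mark box C/D RNAs, which guide ribose methylation, and SNORA names box H/ACA RNAs, which guide pseudouridylation. Low counts left 7 of the 13 in the test, and 5 of these 7 were called lower in HuR, where 46.3% of all small RNA features were. In RPM both HuR libraries lay below every slice for 6 of the 7, as they did for 59.6% of all small RNA features, and above for 0, against 4.21%. The tested snoRNAs passed the count filter through the GFP slices, where they are high. This count, and the snoRNA calls and adjusted p-values below, are therefore a description.

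SNORA75 (chr2:232320511-232320647) held 264, 18 and 21 reads in G20, G35 and G45, 1 and 0 in HuR replicates 1 and 2 and 84 in Total. Its log2 fold change was −9.65 ± 1.76 (SE, adjusted p = 0.0470) and −8.34 without G20 (adjusted p = 0.0641). With only 1 HuR read, the ratio of GFP to HuR per library read was 241-fold with an exact 95% interval from 42.9 to 9546. The slices all lay above both HuR libraries.

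SNORD20 (chr2:232321155-232321234) held 472, 15 and 31 reads in the slices, 0 and 13 in the HuR replicates and 184 in Total, with a log2 fold change of −7.90 ± 1.60 (SE, adjusted p = 0.0470) and a ratio of GFP to HuR of 31.7-fold (18.4 to 59.9). SNORD82 (chr2:232325082-232325151) held 165, 8 and 15 reads in the slices, 3 and 7 in the HuR replicates and 48 in Total, with a log2 fold change of −6.19 ± 1.399 (SE, adjusted p = 0.0470). All 3 NCL snoRNAs were thus called lower, and none was called without G20, where no feature at all was called. There SNORD20 had −6.01 (adjusted p = 0.0659) and SNORD82 −4.64 (adjusted p = 0.0845). Without HuR replicate 2 SNORA75 (−7.45, adjusted p = 0.0831) and SNORD82 (−5.37, adjusted p = 0.196) were not called.

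In NOP58, SNORD11 (chr2:203157772-203157859) held 704, 18 and 29 reads in G20, G35 and G45, 7 and 37 in HuR replicates 1 and 2 and 415 in Total, with a log2 fold change of −6.32 ± 1.47 (SE, adjusted p = 0.0475) and a ratio of 13.6-fold (10.01 to 18.8). SNORD11B (chr2:203156055-203156144) held 588, 11 and 68 reads in the slices, 5 and 31 in the HuR replicates and 452 in Total, with a log2 fold change of −6.55 ± 1.405 (SE, adjusted p = 0.0470) and a ratio of 14.7-fold (10.5 to 21.2). In RPM both HuR libraries lay below every slice for each of these 2. G20 gave 704 of the 751 GFP reads of SNORD11 and 588 of the 667 of SNORD11B, and without it the log2 fold changes were −3.86 (adjusted p = 0.0650) and −4.96 (adjusted p = 0.0750). Without HuR replicate 2 they were −6.14 and −6.48. Neither was called in either case, and without G20 no feature at all was. All ratios given here sum the GFP reads, most of which came from G20 for each snoRNA, and their intervals do not cover the difference between slices.

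The upstream SNORD70 copy (chr2:203141154-203141241) held 314, 3 and 4 reads in the slices and 39 of its 41 HuR reads in replicate 2, and the downstream copy (chr2:203142831-203142915) held 94, 5 and 1 reads in the slices and 1 and 3 in the HuR replicates. Neither passed the count filter. In RPM the upstream copy was at 8.13 in G20, 0.485 in G35 and 0.531 in G45, against 0.210 and 1.21 in the HuR replicates, so that it exceeded both only in G20. All 4 NOP58 snoRNAs share the 9-base stretch gtcactacc, at base 63 of the upstream SNORD70 copy, 60 of the downstream one, 66 of SNORD11B and 65 of SNORD11, and the next CTGA follows 1, 1, 4 and 4 bases after it. The leading SNORD11 and SNORD11B sites of G20 printed above both hold this stretch. TGATGA is in neither SNORD70 copy nor in SNORD86. The leading G20 stretch of the upstream SNORD70 copy, chr2:203141161-203141189, holds neither TGATGA nor CTGA.

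In NOP56, SNORD110 (chr20:2634858-2634932) held 180, 11 and 5 reads in G20, G35 and G45, 1 and 22 in HuR replicates 1 and 2 and 495 in Total. It was the only tested snoRNA whose groups overlapped in RPM, since G45 with 0.663 RPM lay below HuR replicate 2 with 0.685. Its log2 fold change of −5.69 ± 1.46 (SE, adjusted p = 0.0520) was not called. SNORA51 (chr20:2635713-2635844) held 33, 6 and 9 reads in the slices, 0 and 5 in the HuR replicates and 754 in Total, with a log2 fold change of −5.86 ± 1.45 (SE, adjusted p = 0.0506) that was not called. SNORD86 held 28, 0 and 1 reads against 1 and 9, and MIR1292 had 1 read in G20, 1 in Total and none in the others.

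The 2 snoRNAs of DKC1 had few reads. SNORA36A (chrX:153996803-153996934) held 32, 4 and 12 in the slices, 1 and 3 in the HuR replicates and 363 in Total, and SNORA56 (chrX:154003273-154003401) held 26, 3 and 3, 1 and 0, and 43. The ratio of GFP to HuR per library read was 9.54-fold (3.49 to 36.4) for SNORA36A and 25.4-fold (4.25 to 1036) for SNORA56, with exact 95% intervals. Of the 12 embedded snoRNAs, SNORD86 had the lowest such ratio, 2.31-fold (1.09 to 5.30), and 28 of its 29 GFP reads came from G20. At 0 RPM in G35 and 0.133 RPM in G45 it was below HuR replicate 2 with 0.280 RPM.

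The SNORD11 and SNORD11B sites lay towards the 3′ end of these RNAs in several libraries. Those of SNORD11 ran over chr2:203157815-203157857 in G35, chr2:203157824-203157860 in G45 and chr2:203157824-203157857 and chr2:203157828-203157856 in HuR replicates 1 and 2. Those of SNORD11B ran over chr2:203156121-203156141 in G35, chr2:203156116-203156142 in G45 and chr2:203156116-203156146 in HuR replicate 1. In G20 and Total for both RNAs, and in HuR replicate 2 for SNORD11B, the sites together reached further towards the 5′ end. CTGA was in 57.9%, 50% and 50% of the embedded small RNA sites of G20, G35 and G45 and in 24.5%, 14.1% and 10.8% of all sites of the same lengths. HuR replicates 1 and 2 went the same way, with 45.5% of 11 and 73.3% of 15 sites, against 7.09% and 8.35%. Total had 45.5%, against 18.2%. Each embedded SNORD gene holds CTGA, so that higher shares were given in advance by the choice of these genes and are a description.

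At the members the conversion events separated the libraries as well. Per 100 exon and intron reads of the members there were 14.8 events in G20, 64.3 in G35 and 47.8 in G45 (42.3 ± 25.2, SD, n = 3), 70.3 and 102 in HuR replicates 1 and 2 (86.2 ± 22.4, SD, n = 2) and 9.17 in Total. Both HuR libraries lay above every slice at the members, and without G20 the GFP mean was 56.0. Over all sites of the libraries this order did not hold. There HuR replicate 1 had 4633959 events on 9525265 reads. That is a lower rate than 3816864 on 6187300 in G35 and 4240836 on 7539669 in G45. HuR replicate 2 was highest there as well, with 28024533 on 32111810. The member value of HuR replicate 1 was lowered by the NCL intron site with 384 reads and no event. NCL introns had 75.8 events per 100 reads without that site.

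By gene, exon reads of HuR replicate 1 had between 78.0 events per 100 reads in DKC1 and 100 in FBL and NOP58, on 8 and 12 reads for the latter pair. In HuR replicate 2 they ran from 74.3 in NOP58 to 118 in NPM1. NOP56 introns in G20, which were mostly the block with both box motifs, had 7.28 events per 100 reads, and in HuR replicates 1 and 2 they had 83.3 and 80.3. The embedded small RNAs had 7.76, 36.3 and 19.6 events per 100 reads in the slices, 65.2 and 88.8 in the HuR replicates and 5.67 in Total.

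**Figure D5:**
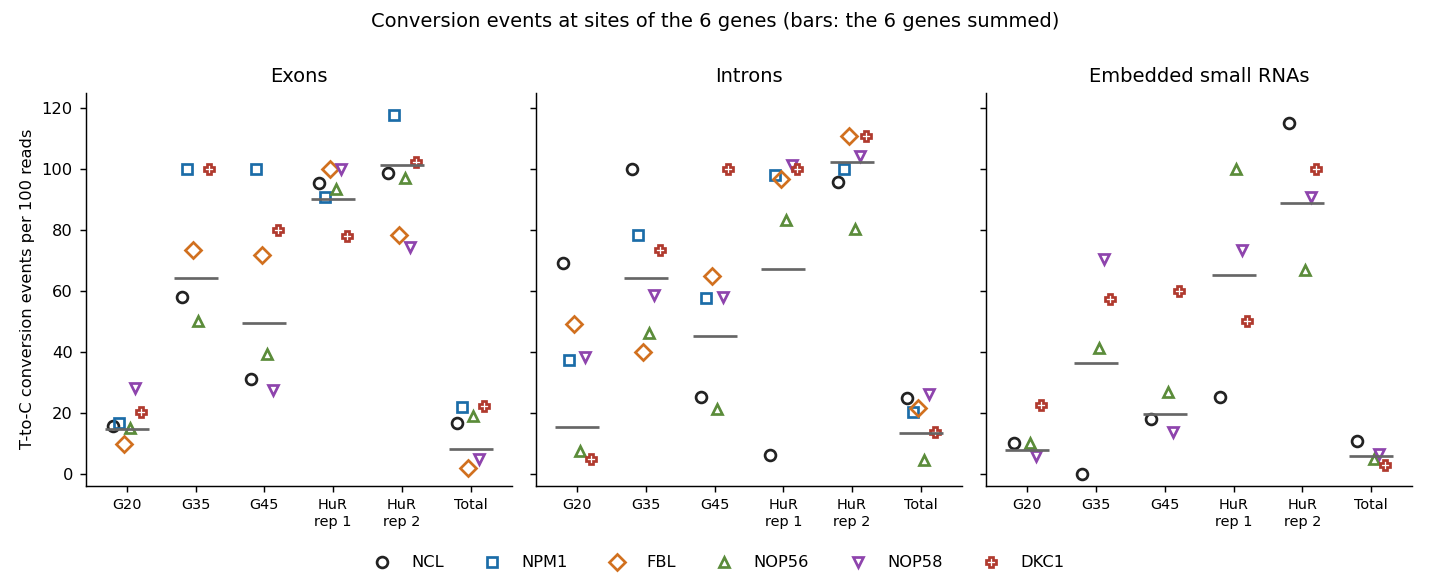
Conversion events per 100 reads (y axis) at exon, intron and embedded small RNA sites, 1 panel each, with 1 symbol per gene and a grey bar for the 6 genes summed in each library. By the grey bars Total and G20 lie lowest and HuR replicate 2 highest in all 3 panels, and NCL introns in HuR replicate 1 lie low, with 384 of their 417 reads at 1 site with no event.

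Part of the HuR reads of these genes fell where the GFP slices had reads too. Of the member reads of HuR replicates 1 and 2, 21.9% (95% Wilson interval 19.8 to 24.1) and 43.8% (42.9 to 44.7) lay at sites that overlapped a GFP site by at least 1 base on the same strand (32.8% ± 15.5, SD, n = 2), and 23.5% on average without G20. Against GFP sites of at least 5 reads alone the average was 9.27%. For exon reads the shares were 64.6% and 75.9%, for intron reads 13.7% and 31.4%, and for small RNA reads 100% in both, on 23 and 169 reads. The share of exon reads was highest in FBL, 100% of 8 and of 88 reads, and next in NCL, 84.1% of 63 and 91.6% of 1530. The 91.6% includes the 3′UTR site with 1157 reads, where G20 and G45 had 4 reads each. The GFP slices had between 81 and 270 member sites each, and their depth limits this share.

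HuR replicate 2 overlapped 62.3% of the 419 member intron sites of replicate 1, with 82.7% of the reads, and G20, G35 and G45 overlapped 10.02%, 3.58% and 5.97% of them, with 127, 34 and 51 intron sites of their own against the 648 of HuR replicate 2. Total overlapped 41.8% of them, and of the intron sites of HuR replicate 2 Total overlapped 38.9% and HuR replicate 1 39.4%. TTTTT was in 15.0% and 21.3% of the member intron sites of the HuR replicates, against 15.4% and 26.8% of all their sites of the same lengths, and in 9.09% and 8.76% of the exon sites, against 14.9% and 30.5%. In G20, G35 and G45 it was in 6.30%, 20.6% and 31.4% of the intron sites, against 4.88%, 15.6% and 21.7%. For exon sites of the slices the shares were 3.23%, 2.86% and 4.69%, against 3.62%, 15.9% and 21.4%. Exon sites of the members ended in G in 87.9%, 91.4% and 90.6% of cases in G20, G35 and G45, where 73.7%, 49.2% and 46.0% of all sites of those libraries did. In HuR the figures were 97.7% and 94.9%, against 85.2% and 93.2%.

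Other genes of snoRNP and ribosome assembly, 66 on a list that left out the members, gave the same counts in brief. Of 56 with testable exons 3 were called lower and 0 higher, and the median log2 fold change was −2.11 against −0.83 for all exon features, with 48 of 56 negative. TCOF1 (treacle, −4.89 ± 1.10, SE) and NOP2 (an rRNA methyltransferase, −4.81 ± 1.10, SE) were the lowest of these 3, both with an adjusted p of 0.0470. Of 54 with testable introns 1 was called lower, IMP3 (−4.73 ± 0.88, SE, adjusted p = 0.0470), and 0 higher, with a median of 1.23 against 0.59 for all intron features and 39 of 54 positive.

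The genes whose exon levels over the 6 libraries were most like the median of the members were RBM15B, PAXBP1 and AKAP12, at Euclidean distances of 0.449, 0.652 and 0.673 on log2 of RPM plus 0.1. RBM15B exons held 178, 29 and 22 reads in G20, G35 and G45, 27 and 486 in HuR replicates 1 and 2 and 678 in Total. Of the members NOP56 lay at a distance of 0.640 from that median and NOP58 at 6.85.

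The strand opposite to the members held few reads, 26, 22 and 33 in G20, G35 and G45, 68 and 191 in HuR replicates 1 and 2 and 49 in Total. Of the clusters that the study's caller had formed, 65, 30 and 24 lay in the members in the slices, 29 and 470 in the HuR replicates and 155 in Total, and 48, 11, 11, 29, 318 and 97 of these had at least 5 reads and 2 conversion locations.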

How the data were processed

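Reads were aligned by the authors with Bowtie to hg19 and grouped into sites with PARalyzer from uniquely mapped reads; PCR duplicate removal was not stated. The deposited tables give, per site, the read count and conversion event count, whole and not normalized. Sites were assigned by midpoint to GENCODE release 44 on GRCh37, and 2494 of 2494 member sequences matched that genome. Reads were summed per exon set, intron set and small RNA gene and tested with edgeR 4.0.16 in R 4.3.3 (filterByExpr, TMM, glmQLFit, Benjamini-Hochberg), HuR against GFP over 5 libraries. Total entered no test. P-values measure the spread between these libraries, and nothing states separate cultures. RPM divides by all site reads of a library. Shares have Wilson and ratios exact intervals. In simulated counts over 20879 features 12 of 100 8-fold and 70 of 100 32-fold changes were called, and 2 of 20679 unchanged ones. All simulated libraries shared the same mean profile, with a capped dispersion and no difference between slices. These rates therefore need not hold for the real libraries.

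Members, lists and rules were chosen with earlier results of these data known. The text names the 6 members, their embedded small RNAs, the site with most reads per member and library, the HuR site with most reads that no GFP site overlaps, at most 2 called genes per direction of the related list, and 3 genes of like profile among those with at least 50 exon reads. The NOP56 block, the examples of other sites and the composition values were chosen after their values were seen. Alternatives were DESeq2 1.42.0, no TMM, no filter, sites counted once, sites with a conversion event, other exon definitions and leaving out each library. Python 3.11.15, numpy 2.4.6, pandas 2.3.3, scipy 1.17.1 and matplotlib 3.10.9 were used for the rest.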

Additional observations from a re-analysis of the deposited data

Results flagged for a closer look

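Total entered no test, and in it 2 features of the members stood over 10 times above the highest GFP slice. FBL exons reached 195 RPM in Total, against 15.5 RPM in G20, the highest slice. SNORA51, the box H/ACA RNA in NOP56, reached 21.0 RPM in Total, against 1.19 RPM in G45, the highest slice. Total is a single library with no replicate, and the 2 FBL conversion events at its largest site stand against 4927 reads.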

How the results depend on the processing

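The call of FBL exons (1 exon call of 6) became 0 with no TMM factor, with sites holding a conversion event and with exons of all transcripts, 2 with canonical exons, 3 with DESeq2 or without each feature's largest site, and 5 with each site counted once, and ranged from 0 to 1 with libraries left out. The call of NOP56 introns became 0 with no TMM, with conversion-event sites, all transcripts, canonical exons and the box block as small RNA, and 2 (with NCL) with no filter, and ranged from 0 to 2. The 5 snoRNA calls became 2 with no TMM, 10 with no filter and 0 with conversion-event sites or all transcripts, and ranged from 0 (without G20) to 11 (without G45), with 10 without G35 and 1, SNORD20, without HuR replicate 2. Over all features conversion-event sites gave 0 calls with edgeR and 5340 at an unadjusted p under 0.05, all transcripts 0 and 5907, and leaving out G20 0 and 5314. Counting each site once left no embedded small RNA past the filter and so gave no value. The cause of these shifts was not tested.

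Exon log2 fold changes reversed with no TMM for NOP56 (0.020), DKC1 (1.38) and NPM1 (1.06), and for NPM1 with all transcripts (0.32) and without HuR replicate 1 (0.086, with −1.46 without HuR replicate 2). Intron ones reversed for NCL with conversion-event sites (−0.55) and all transcripts (−0.38), for DKC1 with no TMM (1.30), conversion-event sites (0.011) and canonical exons (0.21), and for FBL with each site counted once (−0.021). None of these was called.

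The GFP intron share was 12.1% with all transcripts and 42.6% with each site counted once (20.9% to 32.2% with libraries left out), and the HuR one 54.4% with all transcripts (73.0% to 85.0%). The small RNA share was 11.4% in GFP with each site counted once (23.5% to 37.4%), and in HuR 1.63% with any overlap, 1.62% with sites of at least 5 reads, 1.999% with each site counted once and 1.83% with the box block (1.46% to 1.58%). The HuR reads at GFP sites fell to 9.27% with GFP sites of at least 5 reads (21.9% to 43.8%). Events per 100 reads ranged from 31.3 to 56.0 in GFP and from 70.3 to 102 in HuR with libraries left out.

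No paired analysis was possible because the GFP slices carry no replicate number. The 3 slices and 2 HuR libraries, with 578 and 678 member reads in G35 and G45, limit the calls, and unique mapping limits NPM1.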
